A study of Mus musculus with 33 samples.

Results

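The genes described here are 9 mouse genes of the p53 pathway and of cell cycle arrest, namely the CDK inhibitor genes *Cdkn1a*, *Cdkn1b*, *Cdkn2a* and *Cdkn2c*, the p53 gene *Trp53*, its inhibitor gene *Mdm2*, and the stress-induced genes *Ccng1*, *Gdf15* and *Igfbp3*. They were chosen by name, and each has 1 entry among the 41565 named entries of the expression table. Their levels were read in 33 bulk RNA-seq libraries of 2 dissected regions of the hypothalamus of WT female mice, the posterior hypothalamus (PH, 16 libraries) and the preoptic area (POA, 17 libraries). The mice of 4 PH and 5 POA libraries were intact (sham in the library titles) and were killed in diestrus before ovariectomy (OVX). Whether they had a sham operation is not given in the sources used here. The others had been ovariectomized 14 days (6 PH and 6 POA libraries) or 4 months (6 and 6) before. Surgery was done in adults at 3 to 4 months of age, so the 4-month group was also older than the other 2, and no intact mice of that age were analyzed here. Time after OVX and age cannot be told apart in any comparison with the 4-month group. Labels place each group in both of 2 batches, with 2 or 3 libraries of a group in each. Both regions were collected from the mice, but no label states which libraries came from the same mouse. The main fits took libraries as independent, so tests between the regions leave out any sharing of mice. *P* values measure the spread between these libraries.

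The protein p53 is a transcription factor that cells stabilize after DNA damage and other stress. It switches on genes that stop the cell cycle, repair DNA or start apoptosis, and among them is *Mdm2*, whose product marks p53 for degradation and so closes a feedback loop. Senescence is a lasting arrest of the cell cycle that is usually read from the CDK inhibitors encoded by *Cdkn1a* and *Cdkn2a* and from proteins that arrested cells secrete. In the adult hypothalamus most cells are postmitotic neurons and glia, in which these genes are also expressed outside the cell cycle. The comparisons ask whether this set of genes changed shortly or long after the loss of ovarian hormones, and whether the 2 regions differed.

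The p53 protein binds DNA at paired half-sites of 10 bases. Sequences of this kind were searched within 5000 bases of the start of the canonical transcript of each gene, on both strands of GRCm39, as pairs of the p53 half-site without a gap, with the 4 core bases (C and G of each half-site) required and at most 2 mismatches elsewhere. They are shown because they mark which genes of the group carry a close match to the p53 element near their start. Capitals mark the required core bases.
Cdkn1a, 2826 bases upstream of the start, chr17:29309902-29309921, plus strand: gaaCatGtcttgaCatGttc
Ccng1, 160 bases upstream, chr11:40646289-40646308, minus strand: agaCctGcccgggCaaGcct
Ccng1, 366 bases downstream in an intron, chr11:40645763-40645782, minus strand: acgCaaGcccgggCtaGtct
Gdf15, 486 bases downstream in a UTR, chr8:71084616-71084635, minus strand: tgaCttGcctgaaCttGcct

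Each of these 4 sequences has 1 mismatch to the paired half-sites. Thus 3 of the 9 genes held a match, against 9.86% (2145) of 21751 protein-coding genes scanned in the same way. For the other 6 genes, *Mdm2* and *Igfbp3* among them, these letters were not found in this window, which says nothing about p53 binding elsewhere. A match is a description of the sequence only, since p53 binding was not measured. Distances are from the start of the canonical transcript, whereas intron and UTR were read from all annotated transcripts of a gene. The annotated *Cdkn1a* gene begins at 29309936, ahead of its canonical start, so the *Cdkn1a* sequence lies just outside the gene.

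Deposited values come on a linear scale with decimals, so they are no counts. Entries without measurable expression lie at a floor near 22.1 rather than at 0, so that folds of weak genes are understated, and the depth of the libraries is unknown. The filter for testing was a value of 2 times this floor (44.1), reached by 4 or more PH libraries or by 5 or more POA libraries. Each region's log2 values were fitted with limma, with the 3 groups and SV1 (a surrogate variable, that is, a numeric covariate for variation that the groups do not explain) as terms, and *P* values were adjusted over all genes tested. The step that made the deposited values is not given in the sources used here, and the regions differed in them by a median of only 0.048 on the log2 scale over 21220 genes. Levels are therefore not compared between the PH and the POA, nor between genes. In the PH, 1 library stood apart, replicate 5 at 14 days, with SV1 at 0.785 against -0.311 to 0.195 in the others. It held the highest *Mdm2* and *Ccng1* values and the lowest *Trp53* value of the region, and several PH values are also given without it. All 10 neuron markers, all 8 oligodendrocyte markers and all 8 microglia markers had a median over the 33 libraries of more than 2 times the floor.

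Of the 9 genes, 7 passed the filter in both regions, and *Cdkn2a* and *Gdf15* passed it in neither. None of the 7 changed after OVX at an adjusted *P* under 0.05 in any of the 6 comparisons within a region, and none passed for a difference between the regions (limma). The share of all genes called in this fit of the deposited values was also small. In the PH it was 0% of 21994 genes at 14 days, 0.0318% at 4 months and 0.00909% between 4 months and 14 days. In the POA it was 0.00468% of 21364 genes, 0.0936% and 0.0281%. The authors, with DESeq2, reported more changed protein-coding genes at this threshold in each of the 6 comparisons. These shares therefore do not give the size of the response to OVX. At an unadjusted *P* under 0.05, none of the 7 genes passed in the PH, where 3.04%, 6.07% and 4.09% of all genes did in the same order of comparisons. In the POA, *Trp53* passed at 14 days versus intact (1 of 7, against 6.14% of all genes) and at 4 months versus 14 days (1 of 7, against 5.11%), and none of the 7 passed at 4 months versus intact (8.5%).

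**Figure D1:**
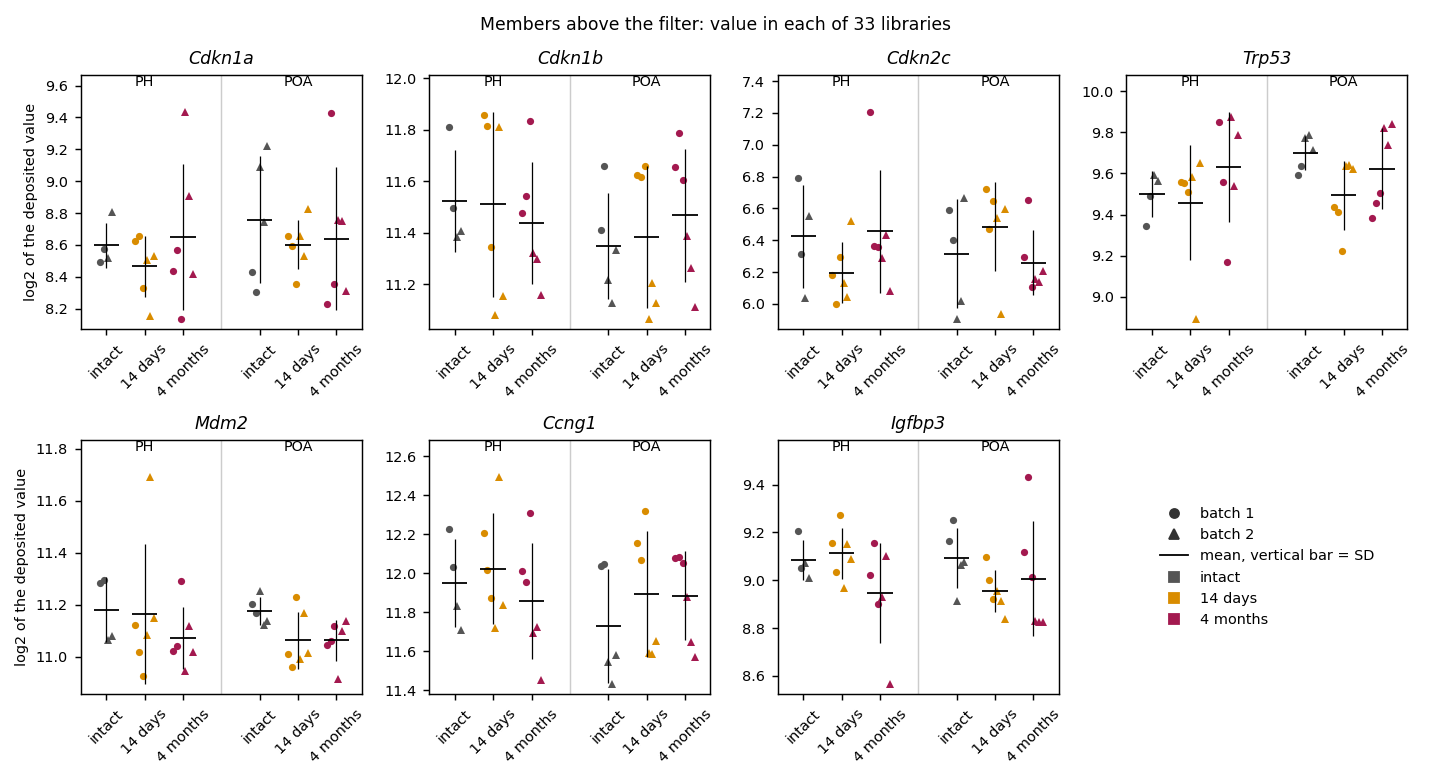
Log2 of the deposited value (vertical axis) of the 7 genes above the filter in each of 33 libraries, by region and by group (intact, 14 days and 4 months after OVX). Circles are batch 1 and triangles batch 2, and bars give the mean and SD of a group. The groups overlap in every panel, *Cdkn1a* has single high libraries at 4 months, and *Cdkn1b* and *Ccng1* in the POA follow the batch.

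*Cdkn1a* (chr17:29309936-29319701, plus strand) encodes p21, the CDK inhibitor through which p53 stops the cell cycle in G1. In the PH its deposited value was 359, 381, 367 and 447 in the 4 intact libraries. It ranged from 285 to 404 with a median of 366 at 14 days, and from 281 to 691 with a median of 362 at 4 months. The groups overlapped, and the median at 4 months lay below that of the intact libraries (374). The fitted fold change was 0.971 at 14 days (95% interval 0.753 to 1.25) and 1.02 at 4 months (0.797 to 1.30), with adjusted *P* = 1.00 and 0.989 (limma). In the POA the 5 intact libraries stood at 344, 317, 545, 429 and 596. The 14-day libraries ranged from 327 to 453 with a median of 395, and the 4-month libraries from 301 to 689 with a median of 379. The 3 highest values of the POA thus fell in 1 library of the 4-month group and 2 intact libraries, and the fold change at 4 months was 0.945 (0.714 to 1.25; adjusted *P* = 0.938, limma).

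The *Cdkn1a* estimates at 4 months moved with single libraries in both regions. Without PH replicate 4, which had the value of 691, the fold change of the PH was 0.925 (log2 -0.11, SE 0.13) and so lay on the other side of 1. Without POA replicate 2, at 689, that of the POA was 0.843 (log2 -0.25, SE 0.13; unadjusted *P* = 0.072, adjusted *P* = 0.669, limma). Neither was called. Over all single libraries left out, the log2 difference ran from -0.11 to 0.12 in the PH, where 3 omissions reversed its sign, and from -0.25 to 0.025 in the POA, where 2 did. The batches also went opposite ways in fits of single batches, all of which had no SV1 term. Batch 1 alone gave -0.15 and batch 2 alone 0.26 in the PH at 4 months, and in the POA they gave 0.31 (SE 0.31) and -0.41 (SE 0.16, unadjusted *P* = 0.027, adjusted *P* = 1.00, limma). The spread between libraries of *Cdkn1a* was wide for a gene of its level. Its residual SD was 0.29 on the log2 scale in the PH, larger than that of 81.3% of 2052 genes within 0.5 log2 units of its mean, and 0.35 in the POA, larger than that of 92.1% of 2068 such genes.

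*Cdkn1b* (chr6:134897364-134902476, plus strand) encodes p27, a CDK inhibitor that holds differentiated cells out of the cycle and is not controlled mainly by p53. In the PH the intact libraries had values of 3595, 2890, 2673 and 2713. The 14-day libraries lay between 2163 and 3708 with a median of 3099 and the 4-month libraries between 2282 and 3655 with a median of 2704, so the range at 14 days enclosed both other groups. That gave a fold change of 0.904 at 14 days (0.769 to 1.06) and 0.966 at 4 months (0.826 to 1.13), or 0.929 and 0.995 without the library that stood apart. In the POA it was 0.976 (0.894 to 1.07) and 1.03 (0.942 to 1.12), from intact values of 2723, 3236, 2380, 2236 and 2580. In that region all 8 batch 1 libraries (2723 to 3535) lay above all 9 batch 2 libraries (2144 to 2676), a mean log2 difference of 0.42, which exceeded each of its differences between groups.

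*Cdkn2c* (chr4:109517957-109524386, minus strand) encodes the INK4 protein p18, which blocks CDK4 and CDK6. Its values, 60.0 to 148 over the 33 libraries, lay near the floor. Subtracting the floor moved the log2 difference between 4 months and 14 days in the PH from 0.28 to 0.32. In the PH the intact libraries stood at 111, 79.7, 65.8 and 94.1, the 14-day libraries between 64.0 and 92.0 (median 71.3) and the 4-month libraries between 67.8 and 148 (median 82.3). Fold changes were 0.842 (0.629 to 1.13) at 14 days and 1.02 (0.771 to 1.36) at 4 months. In the POA the intact libraries stood at 96.3, 84.7, 60.0, 64.7 and 102, the 14-day libraries between 61.3 and 106 (median 94.9) and the 4-month libraries between 68.9 and 101 (median 72.5). There the fold change was 1.09 (0.880 to 1.36) and 0.931 (0.748 to 1.16). The groups overlapped in both regions, and for 4 months versus 14 days in the PH the 95% interval ran from a fold of 0.928 to 1.59. Without PH replicate 1 at 4 months, at 148, that log2 difference fell from 0.28 to 0.11.

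*Trp53* (chr11:69469669-69482701, plus strand) encodes p53 itself, which is regulated mostly through the stability of the protein. In the POA its value was 771, 797, 874, 882 and 839 in the intact libraries, 598 to 797 with a median of 740 at 14 days, and 669 to 916 with a median of 790 at 4 months. At 14 days 3 of 6 libraries lay below every intact library and none lay above every one, and at 4 months 3 of 6 also lay below every intact library. The fold change was 0.894 (0.820 to 0.975; log2 -0.16, SE 0.06, unadjusted *P* = 0.014, adjusted *P* = 0.799, limma). From 14 days to 4 months it was 1.10 (1.01 to 1.19; unadjusted *P* = 0.027, adjusted *P* = 0.964, limma), and 4 months versus intact gave 0.982 (0.900 to 1.07). Neither difference passed the adjusted threshold.

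Inside the batches, the POA values of *Trp53* at 14 days were lower than the intact ones in each. In batch 1 the 14-day libraries stood at 692, 682 and 598 against 771 and 797 in the intact ones, and in batch 2 at 795, 797 and 787 against 874, 882 and 839. All 14-day libraries lower inside both batches was a pattern that 0.95% of the 21364 genes showed, and this pattern was looked for after the values had been seen. The fitted log2 difference was -0.26 (SE 0.11) in batch 1 alone and -0.12 (SE 0.09) in batch 2 alone, with adjusted *P* = 0.906 and 0.901 (limma). The residual SD of *Trp53* in the POA was 0.067 on the log2 scale, and 1.21% of 2645 genes of like level had a smaller one. Leaving SV1 out gave a log2 difference of -0.20 (unadjusted *P* = 0.060, limma), and batch in its place gave -0.18 (unadjusted *P* = 0.010, adjusted *P* = 0.811, limma).

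In the PH the fitted difference of *Trp53* at 14 days was above 0 with SV1 as a term (log2 0.080), and below 0 with batch in its place or with no covariate (-0.040 in both). Its value was 650, 719, 772 and 757 in the intact libraries, 476 to 803 (median 753) at 14 days and 576 to 938 (median 819) at 4 months. Fitted fold changes were 1.06 (0.912 to 1.23) at 14 days, or 1.06 as well without the library at 476, and 1.07 (0.927 to 1.24) at 4 months. The fit of the difference between the regions took all libraries as independent, so its SE, interval and *P* leave out any sharing of mice. At 14 days the difference was 0.24 on the log2 scale (SE 0.11, 95% interval 0.018 to 0.47), with unadjusted *P* = 0.035 and adjusted *P* = 0.999 (limma). With batch in place of SV1 it was 0.14 (unadjusted *P* = 0.404) and with no covariate 0.16 (unadjusted *P* = 0.376, limma). Among the 7 genes it alone was under the unadjusted threshold there, which 3% of 22138 genes passed, and 0.00452% passed the adjusted one. At 4 months none of the 7 genes passed either threshold, which 4.08% and 0.00903% of all genes did. *Wrap53*, a protein-coding gene on the opposite strand, overlaps *Trp53*. The library kit keeps strand, but whether strand was used in the quantification is not given in the sources used here.

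*Mdm2* (chr10:117524780-117546730, minus strand) encodes the ubiquitin ligase that limits p53 and is a p53 target itself. In the POA the intact libraries had values of 2354, 2301, 2437, 2226 and 2250, the 14-day libraries 1994 to 2401 with a median of 2064, and the 4-month libraries 1929 to 2251 with a median of 2163. Below every intact library lay 4 of 6 libraries at 14 days and 5 of 6 at 4 months. Fold changes were 0.923 at both times (0.848 to 1.00 and 0.847 to 1.00), with unadjusted *P* = 0.063 for each and adjusted *P* = 0.816 and 0.619 (limma). The fits of single batches gave log2 differences between -0.11 and -0.12 at both times.

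In the PH the intact values of *Mdm2* were 2490, 2510, 2143 and 2163, and those at 4 months ran from 1971 to 2502 (median 2093). At 14 days 5 libraries ran from 1945 to 2268 and replicate 5 stood at 3304. The fold change at 14 days was 0.927 (0.823 to 1.04), and without that library it was 0.916. At 4 months it was 0.945 (0.842 to 1.06). The 2 batches differed in direction at 14 days, with a log2 difference of -0.27 in batch 1 and 0.24 in batch 2, which holds replicate 5.

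*Ccng1* (chr11:40639377-40646148, minus strand) encodes cyclin G1, which p53 induces strongly in many tissues and which acts on MDM2. In the POA the intact libraries stood at 4198, 4240, 2993, 2764 and 3068, the 14-day libraries at 3074 to 5109 (median 3753) and the 4-month libraries at 3038 to 4342 (median 4011). All 8 batch 1 libraries (4198 to 5109) lay above all 9 batch 2 libraries (2764 to 3768), a mean log2 difference of 0.50. Inside both batches every 14-day library lay above every intact one, as for 0.758% of all genes. The fold change was 1.06 at 14 days (0.978 to 1.15; unadjusted *P* = 0.144, adjusted *P* = 0.844, limma) and 1.05 at 4 months (0.964 to 1.14). Log2 differences at 14 days were 0.14 (SE 0.08) in batch 1 alone and 0.09 (SE 0.09) in batch 2 alone.

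In the PH *Ccng1* stood at 4788, 4191, 3649 and 3344 in the intact libraries, at 3371 to 5761 (median 3953) at 14 days and at 2801 to 5071 (median 3676) at 4 months. The highest of these was replicate 5 at 14 days. Fitted fold changes were 0.950 (0.843 to 1.07) at 14 days and 0.965 (0.859 to 1.08) at 4 months, and without that library 0.967 and 0.987. The gene *Nudcd2* overlaps *Ccng1* on the opposite strand.

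*Igfbp3* (chr11:7156086-7164179, minus strand) encodes a binding protein for insulin-like growth factors that p53 can induce and that senescent cells secrete. In the POA the intact libraries had values of 573, 610, 481, 535 and 539. They lay between 458 and 548 (median 490) at 14 days and between 453 and 690 (median 486) at 4 months, and 1 of 6 libraries at 14 days and 3 of 6 at 4 months fell below every intact one. The fold change was 0.887 at 14 days (0.785 to 1.00; unadjusted *P* = 0.053, adjusted *P* = 0.806, limma) and 0.917 at 4 months (0.812 to 1.04). In the PH the intact values were 590, 530, 538 and 516, with 501 to 619 (median 557) at 14 days and 379 to 571 (median 503) at 4 months. There the fold change was 0.997 (0.853 to 1.16) and 0.914 (0.786 to 1.06), and the groups overlapped.

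**Figure D2:**
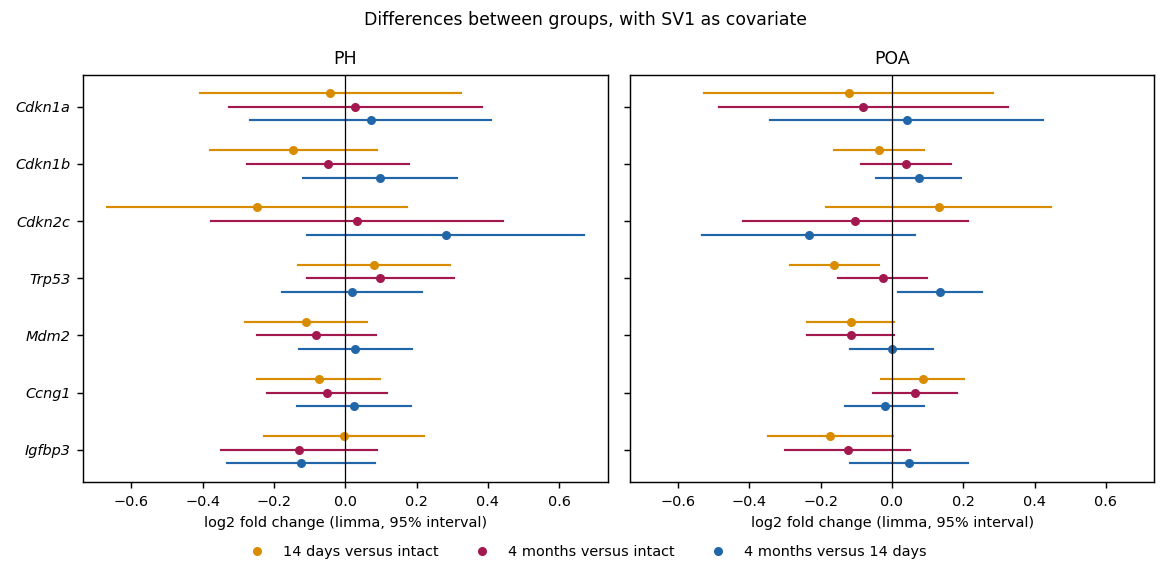
Log2 fold change (horizontal axis) of the 7 tested genes from limma with SV1 as covariate, with 95% intervals, for 3 comparisons in the PH and in the POA. Every interval includes 0 except 2 of *Trp53* in the POA (14 days versus intact and 4 months versus 14 days), and *Cdkn1a* and *Cdkn2c* have the widest intervals.

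The 7 genes did not move in 1 direction. Fitted differences from the intact group were above 0 for 1 gene and below 0 for 6 in the PH at 14 days, and above 0 for 3 and below 0 for 4 at 4 months. In the POA they were above 0 for 2 and below 0 for 5 at each time. Their median log2 difference at 14 days and 4 months was -0.07 and -0.05 (PH) and -0.12 and -0.08 (POA), beside -0.0018, -0.0093, -0.0059 and -0.011 over all genes. These comparisons share the intact libraries of a region, so their signs are not independent. The 95% intervals of all 7 genes at 4 months versus intact lay between folds of 0.771 and 1.36 (PH) and of 0.714 and 1.25 (POA).

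The 2 genes near the floor are those most used as readouts of senescence and of cell stress in other tissues. *Cdkn2a* (chr4:89192708-89212890, minus strand) encodes the CDK inhibitor p16 and, in another reading frame, p19 ARF, which holds back MDM2, and its single entry cannot separate them. It was within 5% of the floor in 23 of 33 libraries and over 2 times the floor in none. The PH intact libraries stood at 21.8, 33.9, 21.8 and 27.1, and all 5 POA intact libraries at 22.3 to 22.5. At 14 days the PH libraries ranged from 21.7 to 38.0 (median 21.9) and those of the POA from 22.1 to 27.0 (median 22.5). At 4 months they ranged from 21.7 to 27.1 (median 21.8) in the PH, where 5 of 6 were at the floor, and from 22.1 to 32.2 (median 25.0) in the POA, where 3 of 6 were. The highest value of the 33 was PH replicate 5 at 14 days, the library that stood apart.

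*Gdf15* (chr8:71082038-71091537, minus strand) encodes a secreted stress cytokine of the TGF-β family that acts on the brainstem to lower food intake. It was at the floor in 14 of 33 libraries, with a highest value of 38.1 in a PH intact library and none over 2 times the floor. The PH intact libraries stood at 21.8, 38.1, 21.8 and 27.2, and those of the POA at 22.4, 22.5, 34.2, 22.4 and 35.3. Medians at 14 days and 4 months were 24.4 and 28.7 for the PH, and 27.2 and 27.5 for the POA. In the POA at 4 months the 3 libraries of batch 1 were at the floor and those of batch 2 at 32.5 to 33.6. No fold is given for either gene, since all groups lie at or near the floor, and a change was not detectable at these levels.

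**Figure D3:**
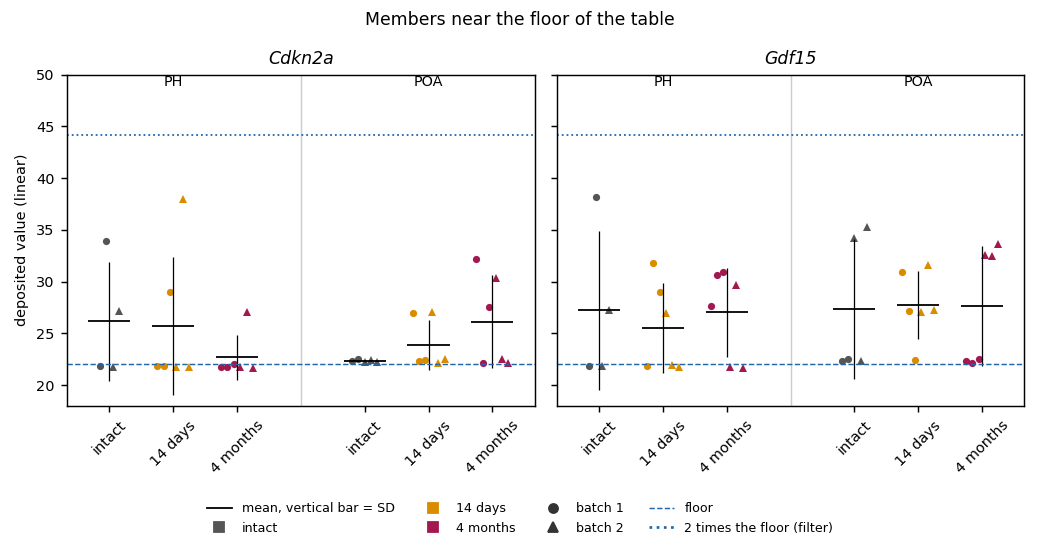
Deposited value on a linear scale (vertical axis) of *Cdkn2a* and *Gdf15* in each library by region and group, with the floor of the table (dashed line, near 22.1) and the filter of 2 times the floor (dotted line, 44.1). Circles are batch 1 and triangles batch 2, and bars give the mean and SD. No library reaches the dotted line, and the highest values are 38.0 and 38.1.

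The genes whose pattern was most like that of each member were looked for among 15977 protein-coding genes, as the highest Pearson correlation over the 33 libraries after subtraction of the mean of each region and batch. Libraries of 1 mouse may be among these points, and the groups were left in. For *Cdkn1a* these were *Plin4*, a lipid droplet protein gene (r = 0.74), *Cep72*, a centrosome protein gene (r = 0.69), and *Maff*, a small MAF transcription factor gene (r = 0.67). *Plin4* stood at 676 in the PH library with the highest *Cdkn1a* value and at 127 to 299 in the 15 others. In the POA library with the highest *Cdkn1a* value it stood at 487, against 131 to 287 in the 16 others. Without the 2 libraries farthest from the *Cdkn1a* median, r fell to 0.45 for *Plin4*, 0.51 for *Cep72* and 0.40 for *Maff*, so much of the likeness rested on these 2 libraries. The subtracted means still included them.

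**Figure D4:**
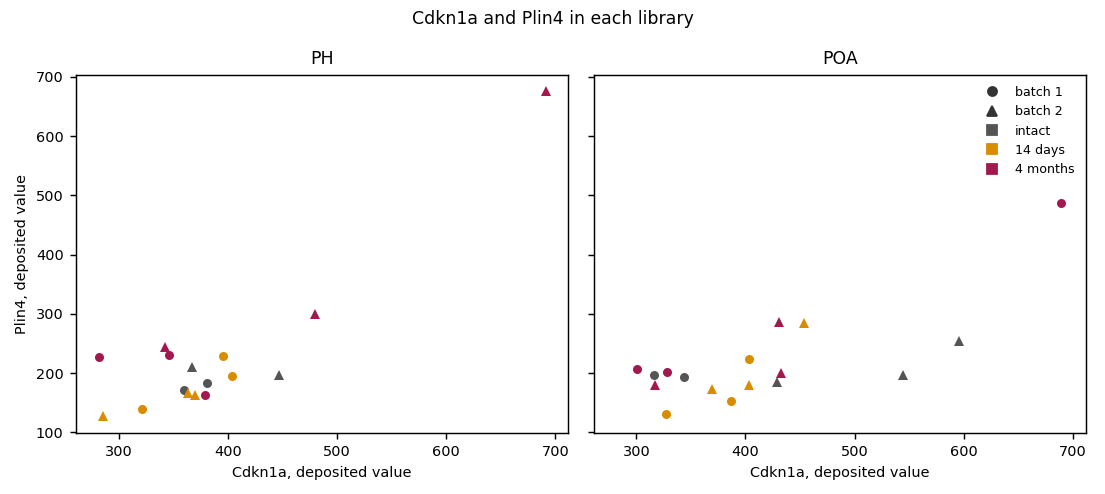
Deposited value of *Plin4* (vertical axis) against that of *Cdkn1a* (horizontal axis) in each library, with the PH left and the POA right. Colors are the groups, circles batch 1 and triangles batch 2. One 4-month library in each region is high in both genes (691 and 676 for the PH library, 689 and 487 for the POA one), and all others have *Plin4* values of at most 299.

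*Plin4* belongs to a list of 14 genes known to be induced by glucocorticoids. Of the 13 others than *Cdkn1a* itself, 12 correlated positively with *Cdkn1a*, with a median r of 0.32, beside 0.031 for all genes. Of 33 other p53 target genes 22 did, with a median r of 0.067, and the highest was *Sesn1* at 0.47. Of 15 genes of the integrated stress response 11 did, with a median r of 0.165. These are descriptions of the same 33 libraries, and differences between the lists were not tested. The medians include the 2 libraries farthest from the *Cdkn1a* median and were not computed without them.

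The strongest correlations among the 7 genes were weaker without the library that stood apart. For the values without it, the subtracted mean of its region and batch still included it. Over the 33 libraries *Trp53* correlated at -0.76 with *Ccng1* and at -0.69 with *Mdm2*, and *Mdm2* at 0.65 with *Ccng1*, but without PH replicate 5 at 14 days these values were -0.54, -0.43 and 0.32. *Cdkn1b* and *Ccng1* correlated at 0.74, and at 0.61 without it. *Cdkn1a* correlated at -0.34 with *Mdm2* and at -0.27 with *Ccng1*, both p53 targets like itself, and at -0.20 and -0.080 without it. Its correlation with *Cdkn1b* was 0.090, and 0.32 without it. The genes most like *Ccng1* were *Tceal8*, *Krcc1* and *Gpm6b* (r = 0.91 to 0.92, and 0.80 to 0.84 without that library), and among those most like *Trp53* were *Plppr2* and *Mpp3* (0.89 and 0.88, and 0.81 and 0.78 without it). *Mdm2* was most like *Ccdc50*, *Fgfr1op2* and *Kcnj16* (0.83 to 0.84, and 0.66 to 0.67), and *Cdkn1b* most like *Prkaa1*, *Lnpk* and *Gm49353* (0.84 to 0.86, and 0.77 to 0.79). For *Cdkn2c* they were *Nphs1*, *Msx1* and *Acot5* (0.65 to 0.68), and for *Igfbp3* *Cdc16*, *Tusc1* and *Hc* (0.66 to 0.71). Some of these values differed by region. For the genes most like *Mdm2*, r was 0.91 to 0.93 in the PH, which holds the library that stood apart, and 0.30 to 0.48 in the POA. It was 0.89 and 0.30 for *Cdkn2c* with *Nphs1*, and 0.94 and 0.44 for *Cdkn1b* with *Lnpk*. *Cdkn1a* with *Maff* went the other way (0.56 and 0.75).

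The other genes of the pathway were read from 10 lists. Among 33 tested p53 target genes (34 listed, members included), 1 was called, *Btg2*, an antiproliferative gene that p53 induces and that is also an immediate early gene of neurons. Its value in the POA was 395, 467, 503, 705 and 403 in the intact libraries, 378 to 532 at 14 days and 774 to 962 at 4 months. All 6 libraries at 4 months lay above every intact and every 14-day library. The log2 difference at 4 months was 0.89 versus intact (SE 0.11, adjusted *P* = 0.0019) and 0.95 versus 14 days (SE 0.11, adjusted *P* = 5.9e-04, limma). The call versus intact was lost with a replicate block beside SV1, and both calls were lost within single batches. In the PH *Btg2* stood at 508, 386, 466 and 626 in the intact libraries and at 619 to 962 at 4 months, with a log2 difference of 0.58 (SE 0.13, adjusted *P* = 0.208, limma). Over the whole target list at 4 months, 18 genes had positive and 15 negative log2 differences in the PH (median 0.0024), and 11 had positive and 22 negative ones in the POA (median -0.046). At an unadjusted *P* under 0.05, 2 of the 33 were higher and 0 lower in the PH, against 6.07% of all genes in either direction. These were *Btg2* and *Tnfrsf10b*, a death receptor gene that p53 induces, with 103 ± 13.1 (SD, n = 4) in the intact libraries and 130 ± 16.9 (SD, n = 6) at 4 months. Its log2 difference was 0.34 (SE 0.16, adjusted *P* = 0.799, limma), and 5 of 6 libraries at 4 months lay above every intact one. In the POA 1 was higher, *Btg2*, and 3 were lower, against 8.5% of all genes, and *Sesn2* had the smallest *P* of these 3 (log2 -0.23, SE 0.09, adjusted *P* = 0.414, limma).

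Of 12 genes of the p53 core and its regulators, none was called, and the 2 with the smallest *P* at 4 months were *Chek1* (log2 -0.34) and *Trp63* (0.28) for the PH, and *Usp7* (-0.12) and *Chek2* (0.46) for the POA. Of 7 tested CDK inhibitors none was called, and none passed the unadjusted threshold in any comparison within a region. *Cdkn3*, the phosphatase that acts on CDK2, had the smallest *P* of that list at 4 months in both regions (log2 -0.23 and -0.15), and *Cdkn2d* came next in the PH (-0.08). Among 15 genes of G1 cyclins, CDKs and the RB pathway none was called. *Ccnd2*, cyclin D2, was lower at 4 months with log2 -0.36 (unadjusted *P* = 0.019) in the PH and -0.38 (unadjusted *P* = 0.026, limma) in the POA, *Rbl2* higher in the PH (0.29) and *E2f3* lower in the POA (-0.21).

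None of 14 tested proliferation genes was called. *Bub1*, a mitotic checkpoint kinase gene, had a log2 difference of -0.83 (SE 0.22, adjusted *P* = 0.406) and *Top2a* one of -0.64 (SE 0.23, adjusted *P* = 0.645, limma) in the PH at 4 months, both from values near the floor. In the POA *Ccnb1* (-0.37) and *Cdk1* (-0.43) had the smallest *P*. Of the 29 senescence-associated secreted factors, 18 PH and 17 POA entries passed the filter, and none was called. At an unadjusted *P* under 0.05 (limma) at 4 months versus intact, 4 were higher and 0 lower in the PH, against 6.07% of all genes. In the POA 1 was higher and 0 lower, against 8.5%. *Csf1*, a growth factor of microglia, had a log2 difference of 0.34 in the PH (adjusted *P* = 0.638, limma) and of 0.33 (SE 0.08, adjusted *P* = 0.134, limma) in the POA, with *Plau* (0.42) next in the PH and *Tgfb1* (0.35) in the POA. The median of this list at 4 months was 0.13 (PH) and 0.031 (POA), beside -0.0093 and -0.011 over all genes.

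Of 11 senescence-associated nuclear and lysosomal genes none was called. *Ezh2*, a histone methyltransferase gene, was below every intact library in 6 of 6 POA libraries at 4 months (log2 -0.40, SE 0.11, unadjusted *P* = 0.0022, adjusted *P* = 0.279, limma). A looser pattern, every 4-month library below every intact one inside both batches, was shown by 1.32% of 21364 genes. *Bmi1* stood at -0.15 in the POA, while *Fuca1* (0.25) and *Hmgb2* (0.21) led in the PH. Of 6 tested IGF-binding proteins none was called, *Igfbp4* stood at 0.44 in the PH and *Igfbp7* at 0.28 in the POA, and *Igfbp3* came next in both. Of 14 tested genes of the integrated stress response none was called, with *Atf3* (0.55) and *Cebpb* (0.42) in the PH and *Sesn2* (-0.23) and *Ddit4* (0.20) in the POA. Of the 14 glucocorticoid-induced genes, *Depp1* was called in the POA at 4 months versus intact (log2 0.84, SE 0.15, adjusted *P* = 0.043) and versus 14 days (0.84, adjusted *P* = 0.032, limma). The call versus intact was lost in 8 of 11 alternatives, the replicate block among them, and without any 1 of 14 of the 17 libraries. *Per1* stood at -0.31 there, and *Depp1* (0.81) and *Pdk4* (0.33) were the leading genes in the PH.

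**Figure D5:**
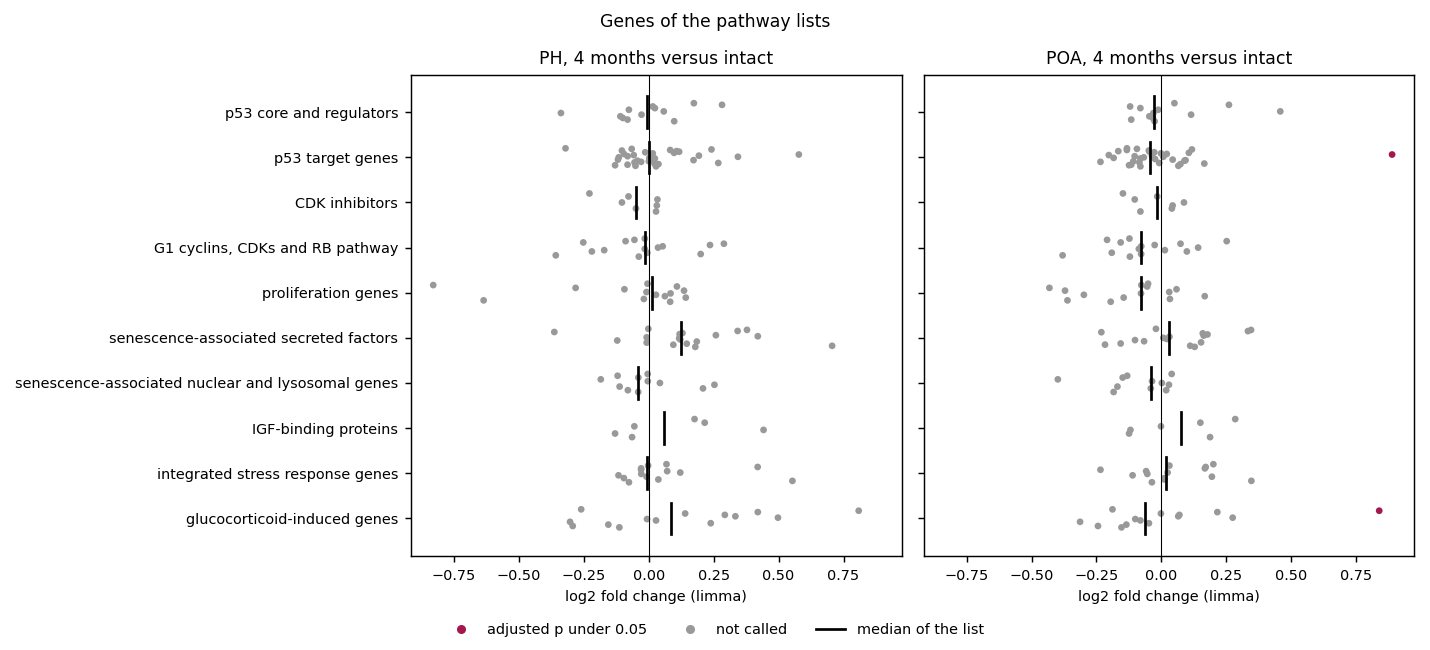
Log2 fold change at 4 months versus intact (horizontal axis, limma) of each tested gene of 10 lists in the PH and the POA. Points are genes, short vertical lines the median of a list, and colored points the genes with an adjusted *P* under 0.05. *Btg2* (0.89) and *Depp1* (0.84) in the POA are the colored points, and the list medians lie between -0.08 and 0.13.

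Markers of some other cells were shifted from the intact group in these bulk samples, in which more cells of a type and more RNA per cell cannot be told apart. At 4 months, time after OVX and age cannot be told apart either. Microglia markers had a median log2 difference of 0.11 (PH) and 0.14 (POA) at 14 days. At 4 months 8 of 8 microglia markers and 7 of 8 endothelial markers had positive log2 differences in each region, with *C1qa* called in the POA (0.43, adjusted *P* = 0.043, limma), a call lost in 7 of 11 alternatives and without any 1 of 14 of the 17 libraries. At an unadjusted *P* under 0.05 (limma), 4 (PH) and 6 (POA) of the 8 microglia markers were higher and 0 lower. For the endothelial markers 5 and 3 of 8 were higher and 0 lower, against 6.07% and 8.5% of all genes in either direction. The sum of the microglia markers ran from 13249 to 14385 in the intact POA libraries and from 14084 to 16973 at 4 months. All 6 red cell genes were higher in each region by the unadjusted threshold, which 6.07% (PH) and 8.5% (POA) of all genes passed in either direction. *Alas2* was called in the PH (1.37, adjusted *P* = 0.030, limma), though not in 4 of 11 alternatives or without any 1 of 5 of the 16 libraries. Oligodendrocyte markers had medians of -0.13 (PH) and -0.11 (POA) at 4 months, neuron markers -0.067 and -0.040, and astrocyte markers 0.025 and -0.0041. Mural cell markers had medians of 0.18 and 0.21, and oligodendrocyte precursor markers -0.025 and -0.068. Anterior pituitary markers were high in some POA libraries at 14 days, where their sum reached 10826 against at most 2154 in intact ones. The part of these cells in the values of the 9 genes was not tested.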

How the data were processed

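Bulk RNA-seq of the PH and POA of intact and OVX mice was analyzed (33 libraries, 1 deposited table). The authors made stranded mRNA libraries, pseudoaligned reads with kallisto (mm39), summarized them per gene and normalized them with DESeq2. The deposited values are a normalized signal on a linear scale, neither whole counts nor read totals, and the step that produced them is not given in the sources used here. Sums per library were 44.5 to 73.0 in mega units. Depth is unknown, so no counting interval is given.

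The 9 genes and the lists were chosen with earlier results of these data known. Log2 values without a pseudocount were fitted with limma 3.58.1 (R 4.3.3; trend and robust) on 3 groups and SV1 per region, and over all libraries for the difference between regions. No term for the mouse was used in these fits. A count test had been considered for the case of counts. SV1 was computed in base R by the iteratively reweighted method in 5 rounds, and the fits were tested on simulated data. Benjamini-Hochberg adjustment ran over every gene tested. Entries that carry no gene name (1259) were not used. Positions come from GENCODE M39 (GRCm39), in which 972 of the named entries have no symbol. The text names all 9 genes, each list gene called, the 2 list genes with the smallest *P* in each 4 months versus intact comparison, and the 3 genes most like each tested gene, of which 1 is not reported here. Other genes and libraries were named after their values were seen. Tables and figures were made in Python 3.11.15 (pandas 2.3.3, numpy 2.4.6, matplotlib 3.10.9). Alternatives were batch in place of SV1, both together, no covariate, a replicate block, each pair of groups by itself, each batch by itself, quantile normalization, a pseudocount of 32, subtraction of the floor, no filter and each library left out. Fits of each batch by itself had no SV1 term, so they differ from the main fit in the model as well as in the libraries.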

Additional observations from a re-analysis of the deposited data

Results flagged for a closer look

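Single libraries stood far from the rest of their group in 5 of 42 groups of a gene, where chance flags about 1 in 20. For *Cdkn2c*, PH replicate 1 at 4 months stood at 147.6 against 67.76 to 86.22 in the other 5 libraries, POA replicate 5 at 14 days at 61.33 against 88.83 to 105.6, and POA replicate 2 at 4 months at 100.5 against 68.86 to 78.44. The last of these is also the POA library with the highest *Cdkn1a*, *Cdkn1b* and *Igfbp3* values. PH replicate 5 at 14 days had a *Trp53* value of 475.8, against 728.8 to 803 in the other 5, and an *Mdm2* value of 3304, against 1945 to 2268. The causes were not tested.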

How the results depend on the processing

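No alternative called any of the 7 tested genes, and the smallest adjusted *P* of any of them was 0.426. Of 532 log2 differences under alternatives that keep every library or use whole groups or batches, 484 kept their direction and 48 reversed it, all from differences of at most 0.146 in size. The causes were not tested. With batch in place of SV1, and with no covariate, the same values reversed in the PH: at 14 days *Ccng1* (0.075), *Igfbp3* (0.028) and *Trp53* (-0.040), and at 4 months versus 14 days *Cdkn1b* (-0.071), *Mdm2* (-0.092) and *Ccng1* (-0.17). With no covariate *Cdkn1b* in the POA at 14 days (0.034) also did. With SV1 and batch together, *Igfbp3* in the PH at 14 days was 0.0044, *Mdm2* in the POA at 4 months versus 14 days 0.00014, and its difference between regions at 14 days -0.0081. Quantile normalization gave 0.0027 and -0.019 for the same 2 *Mdm2* values and 0.020 for the difference between regions of *Igfbp3* at 4 months. With only the 2 groups compared, *Cdkn1a* in the PH at 4 months was -0.0014 and *Igfbp3* at 14 days 0.0067.

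Replicate numbers are shared between groups, but they were not taken as pairs in the main fit. Libraries of different groups within a region were correlated after subtraction of group means, with batch differences left in. That cannot show which PH and POA libraries share a mouse, which was not examined. Not every same-numbered pair correlated above 0.1. Within a batch 9 of 12 same-numbered pairs of the PH (median r 0.19) and 14 of 14 of the POA (0.27) did, beside 17 of 30 (0.15) and 32 of 34 (0.27) pairs with different numbers, and across batches none of the 2 same-numbered pairs of each region did. The replicate block beside SV1 called none of the 7 genes. It reversed *Igfbp3* in the PH at 14 days (0.069), *Cdkn1b* in the PH at 4 months (0.015) and *Cdkn1a* in the POA at 14 days (0.045) and 4 months (0.096).

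Batch 1 alone gave, in the PH at 14 days, 0.018 for *Cdkn1b*, 0.0059 for *Cdkn1a* and 0.026 for *Igfbp3*, and for *Cdkn1a* -0.15 at 4 months and -0.16 at 4 months versus 14 days. At 4 months versus 14 days in the PH it gave -0.053 for *Cdkn1b* and -0.014 for *Trp53*. In the POA it gave 0.098 for *Cdkn1b* and 0.17 for *Cdkn1a* at 14 days, 0.31 for *Cdkn1a* at 4 months and 0.0076 for *Mdm2* at 4 months versus 14 days. Batch 2 alone gave, in the PH at 14 days, 0.24 for *Mdm2*, 0.25 for *Ccng1*, 0.030 for *Igfbp3* and -0.20 for *Trp53*, and -0.030 for *Cdkn2c* at 4 months. At 4 months versus 14 days in the PH it gave -0.090 for *Cdkn1b*, -0.28 for *Mdm2* and -0.39 for *Ccng1*. In the POA it gave 0.043 for *Trp53* at 4 months, and 0.088 for *Ccng1*, -0.077 for *Igfbp3* and -0.065 for *Cdkn1a* at 4 months versus 14 days.

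Leaving out 1 library reversed 52 of 1155 differences. In the PH at 14 days *Igfbp3* ran from -0.045 to 0.027 and *Cdkn1a* from -0.088 to 0.00042, and at 4 months *Cdkn1a* from -0.11 to 0.12 and *Cdkn2c* from -0.12 to 0.15. At 4 months versus 14 days in the PH *Mdm2* ran from -0.013 to 0.074, *Ccng1* from -0.037 to 0.052, *Cdkn1a* from -0.052 to 0.18 and *Trp53* from -0.053 to 0.096. In the POA at 4 months *Cdkn1b* ran from -0.014 to 0.075, *Cdkn1a* from -0.25 to 0.025 and *Cdkn2c* from -0.18 to 0.00095. At 4 months versus 14 days in the POA *Mdm2* ran from -0.024 to 0.037, *Ccng1* from -0.053 to 0.00084, *Igfbp3* from -0.020 to 0.071 and *Cdkn1a* from -0.15 to 0.14. Differences between regions ran from -0.037 to 0.046 for *Mdm2* and -0.017 to 0.18 for *Cdkn1a* at 14 days, and from -0.046 to 0.061 for *Igfbp3*, -0.032 to 0.27 for *Cdkn1a* and -0.019 to 0.26 for *Cdkn2c* at 4 months.

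*Btg2* in the POA was called without each of the 17 libraries in turn, at both comparisons, and in 8 of 11 (versus intact) and 9 of 11 (versus 14 days) other alternatives. It was not called in batch 1 alone or batch 2 alone, and versus intact with the replicate block. Its log2 differences were 0.80 to 0.96 in these alternatives and 0.81 to 1.00 with 1 library left out. *Depp1* versus intact was called in 3 of 11 alternatives and without 3 of 17 libraries, versus 14 days in 6 of 11 and without 6 of 17, *C1qa* in 4 of 11 and without 3 of 17, and *Alas2* in 7 of 11 and without 11 of 16, all in the same direction. Values near the floor, *Cdkn2a* and *Gdf15* above all, do not allow folds, and the unknown depth leaves the counting error of every value unknown.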
